A study of Mus musculus with 76 samples.

Results

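Gene expression in the embryonic mouse diencephalon was compared between hs754-humanized and wild type pools at E11.5, at the level of regional and progenitor gene lists. The members were the 8 E11.5 RNA samples of the 76 samples in the series, 4 of each genotype, chosen by time point, assay and genotype. The lists held 311 genes in 24 lists, of which 149 genes in 8 lists were the main ones: thalamus, prethalamus, hypothalamus, ventral midline and hedgehog, dorsal midline, proneural and Notch, DNA replication and G1/S, and G2/M. Both genotypes were in the C57BL/6J strain. Humanized embryos were homozygous for human sequence in place of the mouse ortholog of the enhancer hs754 on chromosome 13, and came from crosses of homozygous humanized parents. Wild type embryos carried the mouse sequence and came from homozygous wild type crosses. The humanized mice were a single line, made by Cas9 editing of C57BL/6J embryos and backcrossed to C57BL/6J. Each replicate was a pool of the diencephalon of 6 embryos from 1 litter, so a pool averages over embryos, and differences between litters in stage, sex and dissection enter the spread between pools. Poly(A) RNA was sequenced, and the value of a gene was the number of read pairs assigned to it without regard to strand, given here as counts-per-million (CPM) scaled by TMM factors.

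In the embryo, the diencephalon lies between the telencephalon and the midbrain and is divided along its length into the pretectum, the thalamus and the prethalamus, with the hypothalamus below and in front. Transcription factors of the homeobox and basic helix-loop-helix families set these regions up, under the influence of Sonic hedgehog from the ventral midline and of Wnt and BMP proteins from the dorsal midline. At mid-gestation most cells are dividing progenitors, and proneural factors together with Notch signalling decide which of them leave the cell cycle and become neurons.

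The pools held 18124370 to 23513110 counts on genes, and lines that name no gene made up 49.9% to 55.8% of the read pairs. Unmapped read pairs alone made up 38.5% to 44.7%. After a filter on low counts, 17816 genes were tested, among them 139 of the 149 genes of the main lists and 273 of the 311 genes of all lists. Tissue identity was checked against markers of neighbouring tissue. Hox genes of the hindbrain were at or below 0.1597 CPM. En2, a gene of the midbrain, ranged from 0.398 CPM in humanized pool 1 to 11.7 CPM in humanized pool 3. The sex of the embryos in a pool also varied: the summed CPM of the Y-linked genes Ddx3y, Uty, Eif2s3y and Kdm5d was 81, 72.9, 64.6 and 81.2 in wild type pools 1 to 4 and 19.2, 31, 0.319 and 137 in humanized pools 1 to 4. Xist, the RNA that coats the inactive X chromosome of females, was at 249, 0.719, 769 and 228 CPM in the wild type pools and at 214, 306, 728 and 1.33 CPM in the humanized pools. Wild type pool 2 and humanized pool 4 were thus nearly without Xist, and humanized pool 3 nearly without Y-linked RNA. A fit with the Y-linked level as a covariate was among the alternatives.

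The 4 markers of the main regions were expressed in every pool. Pax6 (identifier ENSMUSG00000027168.22), a paired-box factor of alar progenitors, was at 185, 185, 228 and 217 CPM in wild type pools 1 to 4 and at 208, 172, 178 and 198 CPM in humanized pools 1 to 4. Dlx2 (ENSMUSG00000023391.9), a homeobox factor of prethalamic GABAergic progenitors, was at 12.8, 27.6, 10.7 and 18.8 CPM in the wild type pools and at 32.6, 14.5, 19.3 and 10.6 CPM in the humanized pools. In both genotypes a single pool stood highest for Dlx2, wild type pool 2 and humanized pool 1. Olig3 (ENSMUSG00000045591.7), a basic helix-loop-helix factor of thalamic progenitors, was at 95.9, 90.3, 62.3 and 57.4 CPM in the wild type pools and at 102, 75.8, 63.02 and 61.5 CPM in the humanized pools. Nkx2-1 (ENSMUSG00000001496.16), a homeobox factor of the hypothalamus, was at 41.5, 52.5, 14.6 and 27.3 CPM in the wild type pools and at 44.6, 11.3, 28.3 and 14.99 CPM in the humanized pools. The genotypes overlapped for all 4 markers, and humanized pool 1 was the highest humanized pool for each of them. As log2 fold changes of humanized over wild type, Pax6 was at -0.11 (SE 0.10), Dlx2 at 0.14 (SE 0.36), Olig3 at -0.017 (SE 0.21) and Nkx2-1 at -0.46 (SE 0.45). In bulk tissue fewer cells of a type and less RNA in each cell cannot be told apart, here and in the lists that follow.

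**Figure D1:**
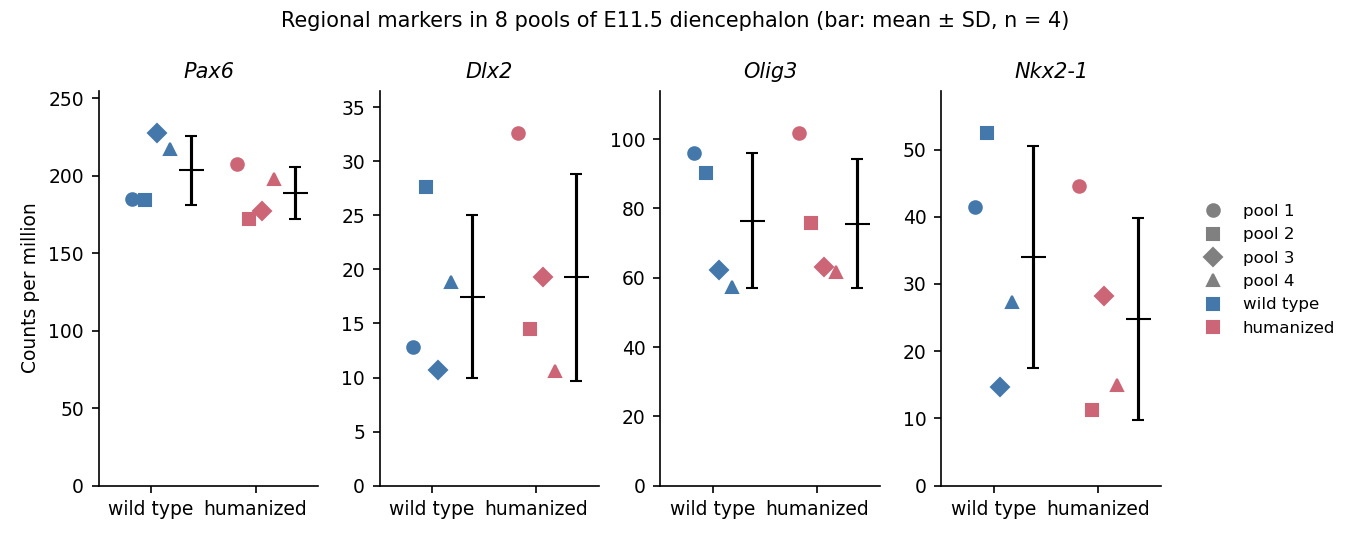
CPM (vertical axis, from 0) of Pax6, Dlx2, Olig3 and Nkx2-1 in the 4 wild type and 4 humanized pools, with a symbol for each pool number and a bar for the mean ± SD. The genotypes overlap for each gene, and the 4 pools of a genotype spread more widely for Dlx2 and Nkx2-1 than for Pax6.

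The promoters of these markers are shown because the same pools' tissue type was profiled for promoter marks and the series is about CpG content. Each line gives the 250 bases before the start of the canonical transcript, on the strand of the gene and read from GRCm39, with every CG dinucleotide in capitals.
Pax6: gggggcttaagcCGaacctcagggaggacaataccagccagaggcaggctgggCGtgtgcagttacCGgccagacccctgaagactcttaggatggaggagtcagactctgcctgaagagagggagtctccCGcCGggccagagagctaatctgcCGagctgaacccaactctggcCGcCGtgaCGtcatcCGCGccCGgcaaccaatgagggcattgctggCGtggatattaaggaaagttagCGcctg
Dlx2: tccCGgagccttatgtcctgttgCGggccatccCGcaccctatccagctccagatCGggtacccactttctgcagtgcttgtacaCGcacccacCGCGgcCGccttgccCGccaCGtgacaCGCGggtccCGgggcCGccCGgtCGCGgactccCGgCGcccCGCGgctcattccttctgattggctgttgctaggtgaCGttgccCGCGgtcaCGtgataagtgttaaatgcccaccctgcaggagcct
Olig3: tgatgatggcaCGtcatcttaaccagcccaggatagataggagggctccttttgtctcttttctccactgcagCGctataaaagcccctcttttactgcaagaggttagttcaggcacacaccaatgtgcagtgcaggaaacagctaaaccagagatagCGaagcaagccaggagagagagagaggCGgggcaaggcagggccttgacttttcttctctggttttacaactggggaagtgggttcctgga
Nkx2-1: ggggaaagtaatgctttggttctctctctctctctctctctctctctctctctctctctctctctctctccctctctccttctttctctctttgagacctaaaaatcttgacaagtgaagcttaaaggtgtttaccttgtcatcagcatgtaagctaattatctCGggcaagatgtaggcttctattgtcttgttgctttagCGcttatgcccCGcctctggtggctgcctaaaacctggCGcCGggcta
The window of Pax6 lies at chr2:105498984-105499233 on the plus strand and that of Olig3 at chr10:19232031-19232280 on the plus strand. The window of Dlx2 lies at chr2:71377103-71377352 on the minus strand and that of Nkx2-1 at chr12:56582055-56582304 on the minus strand. Dlx2 held 25 CG dinucleotides, and 11.2% of all promoter windows of tested genes held at least as many. Pax6 held 14, a number reached by 38.9% of windows. Olig3 held 4 and Nkx2-1 held 5, numbers reached by 83.0% and 77.6% of windows. The Nkx2-1 window lies inside the annotated gene, whose 5' end is at chr12:56583722, so it does not adjoin the outermost start. The windows of the other markers adjoin the 5' ends of their genes. The median window over all tested genes held 11, and the medians of the main lists lay between 12 for the ventral midline list and 17 for the dorsal midline and the G1/S lists.

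No gene of the transcriptome passed an adjusted p of 0.05 between the genotypes at E11.5, with a lowest adjusted p of 0.414 (edgeR, quasi-likelihood test, Benjamini-Hochberg adjustment over 17816 genes). The share of all tested genes called was therefore 0%, and 0 members of any list were called. At an unadjusted p under 0.05 there were 1058 genes, 5.94% of those tested. DESeq2, run without the low-count filter on 34408 genes, gave 1213 such genes and called 2, Ppp3cc and Serinc5. The edgeR number rested on single pools. It was 3937 without wild type pool 2, 3963 without humanized pool 4 and between 401 and 674 without any of the others. Those 2 pools were also the ones with almost no Xist. Their trends with GC content, described later, were opposite in sign to those of the other pools of their genotype. The GC slopes were 0.208 in wild type pool 2 and -0.187 in humanized pool 4. The parts of sex and of GC content in this number were not tested. Among the 139 tested members of the main lists, 8 had an unadjusted p under 0.05, which is 5.76%. Of these members 6 were higher in humanized pools, 4.32% against 3.06% of all genes, and 2 were lower, 1.44% against 2.87% of all genes. In 2 members, Irx3 and Pomc, all 4 humanized pools lay above all 4 wild type pools, against 1.34% of all genes, and in none did they lie below, against 1.13% of all genes. By sign alone, 75 tested members were higher and 64 lower, beside 50.4% of all genes higher and 49.6% lower, and the median log2 fold change of the 139 members was 0.039 beside 0.0028 over all genes. The lowest adjusted p of any list member was 0.577 by the same edgeR test.

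For scale, the gene with the lowest p of all tested was outside the lists. Ppp3cc, a catalytic subunit of calcineurin, was at 6.2, 5.09, 6.43 and 7.11 CPM in wild type pools 1 to 4 and at 12.7, 14.9, 11.2 and 12.4 CPM in humanized pools 1 to 4, a log2 fold change of 1.04 (SE 0.15). Serinc5, a multipass membrane protein that DESeq2 also called, was at 34.7, 34.95, 46.8 and 48.4 CPM in the wild type pools and at 8.41, 22.9, 19.6 and 7.82 CPM in the humanized pools, a log2 fold change of -1.49 (SE 0.33). The genotypes did not overlap for either gene, beside 1.34% of all genes with humanized pools above and 1.13% with humanized pools below. Members of the main lists had log2 fold changes between -0.70 and 0.54.

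The level of a list in a pool was taken as the mean log2 CPM of its tested members. In all 24 lists the range of the 4 humanized pools overlapped that of the 4 wild type pools. Humanized pool 3 had the lowest level of the 8 pools for thalamus, pretectum and habenula, proneural and Notch, and postmitotic neuron, and the highest for ventral midline, neural progenitor, G1/S and G2/M. Wild type pool 2 and humanized pool 1 had the highest prethalamus levels and, together with wild type pool 1, the highest hypothalamus levels. Thus single litters of each genotype carried the extremes of the regional lists.

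**Figure D2:**
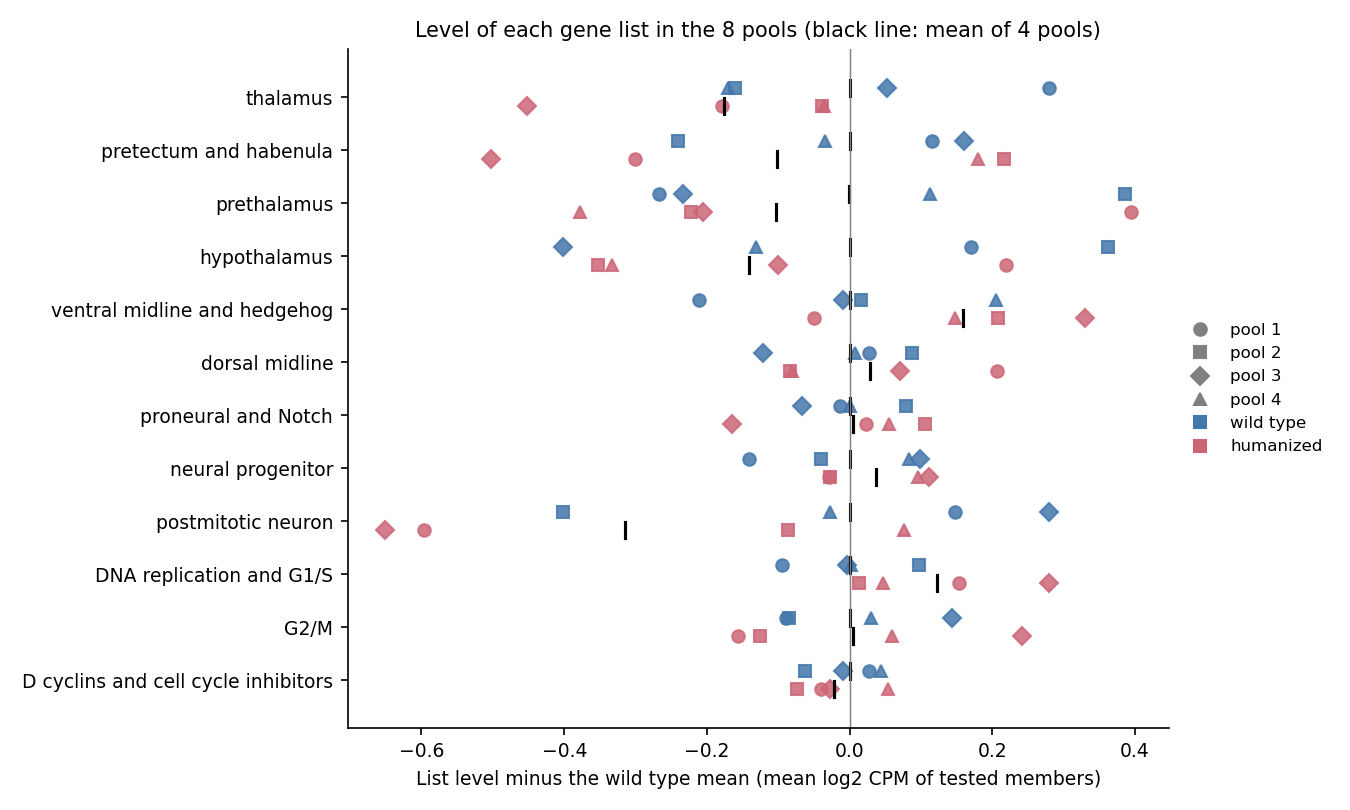
Level of 12 lists (rows) in each of the 8 pools as the difference from the mean of the wild type pools (horizontal axis, mean log2 CPM of tested members), with a symbol for each pool number and a black line for each genotype's mean. Humanized and wild type points overlap in every row, and humanized pool 3 lies at the low end for thalamus and postmitotic neuron and at the high end for G1/S and G2/M.

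The 14 thalamic genes, all tested, were lower in humanized pools for 11 members and higher for 3, with a median log2 fold change of -0.12. The list level was 6.26, 5.82, 6.03 and 5.81 in wild type pools 1 to 4 and 5.80, 5.94, 5.53 and 5.94 in humanized pools 1 to 4, which gives 5.98 ± 0.21 against 5.80 ± 0.20 (SD, n = 4 each). The difference of humanized minus wild type was -0.865 times the pooled SD between pools of a genotype. Leaving out humanized pool 3, the lowest of the 8, changed the split to 9 lower and 5 higher. Per kilobase of exon the most abundant member was Tcf7l2, a Wnt effector of thalamic and habenular neurons, at 224 CPM per kilobase. It was at 1398, 946, 1119 and 922 CPM in the wild type pools and at 976, 940, 706 and 1050 CPM in the humanized pools.

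Irx3, an Iroquois homeobox factor of the caudal forebrain, was the thalamic member with the lowest unadjusted p (0.0286). Its values were 98.1, 96, 94.7 and 97.3 CPM in wild type pools 1 to 4 and 108, 110, 109 and 112 CPM in humanized pools 1 to 4. All 4 humanized values were above all wild type values, by a narrow margin and with little spread within either genotype, and the log2 fold change was 0.18 (SE 0.073). With the GC offsets described later, the log2 fold change of Irx3 was 0.00059. Irx1, an Iroquois gene on chromosome 13, the chromosome of hs754, was at 52.2, 49.2, 40.5 and 41.6 CPM in the wild type pools and at 51.7, 57.3, 48.97 and 51.8 CPM in the humanized pools. Wild type pool 1 lay above 3 of the 4 humanized pools for Irx1, and the log2 fold change was 0.19 (SE 0.11). Irx2, also on chromosome 13, and Irx5 were at -0.036 (SE 0.11) and 0.035 (SE 0.084). Foxp2, a forkhead factor of postmitotic thalamic neurons, was at 32.9, 23.8, 36.9 and 25 CPM in the wild type pools and at 16.7, 21.8, 23.6 and 26.3 CPM in the humanized pools, with a log2 fold change of -0.42 (SE 0.18) and an unadjusted p of 0.0386. Humanized pool 4 lay above 2 wild type pools for this gene, so the genotypes overlapped.

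Gbx2 had the largest standard error of the thalamic members. This gene, a homeobox factor of thalamic neurons, was at 43.6, 18.8, 13.6 and 9.84 CPM in the wild type pools and at 16.9, 18.9, 4.05 and 12.8 CPM in the humanized pools, and wild type pool 1 and humanized pool 3 were the extremes. Its log2 fold change was -0.70 (SE 0.50). Lhx9, a LIM homeobox factor of thalamic neurons, stood at -0.56 (SE 0.33). The progenitor factors Olig3 and Dbx1 were at -0.017 and -0.041, and Barhl2 at -0.074, all within their standard errors.

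Prethalamic genes were lower in humanized pools for 11 of 17 tested members and higher for 6, with a median log2 fold change of -0.047. The prethalamus level was 3.72, 4.37, 3.75 and 4.10 in wild type pools 1 to 4 and 4.38, 3.76, 3.78 and 3.604 in humanized pools 1 to 4, a difference of -0.314 pooled SD. Wild type pool 2 and humanized pool 1 stood above the others by similar amounts. The highest value of 11 of the 17 members was in one of these 2 pools, among them Dlx1, Dlx2, Dlx5 and Dlx6 of the Dlx family. Lhx1, a LIM homeobox factor, was the most abundant member per kilobase at 26.4 CPM per kilobase. Its values were 141, 112, 129 and 118 CPM in the wild type pools and 89.1, 119, 57.1 and 123 CPM in the humanized pools, with a log2 fold change of -0.37 (SE 0.21).

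Gad2, which encodes an enzyme of GABA synthesis, had the lowest unadjusted p of the list (0.0325). It was at 34.99, 24.2, 47.6 and 34.3 CPM in wild type pools 1 to 4 and at 21.3, 25.2, 18.8 and 32.3 CPM in humanized pools 1 to 4, with a log2 fold change of -0.53 (SE 0.22). Wild type pool 2 lay below humanized pools 2 and 4, so the genotypes overlapped. Gad1, which encodes the other GABA-synthesizing enzyme, was at -0.37 (SE 0.23). Sp9, a zinc-finger factor of GABAergic lineages, was at 28.7, 19.6, 13.6 and 14.4 CPM in the wild type pools and at 20.7, 14.6, 7.61 and 10.4 CPM in the humanized pools, with a log2 fold change of -0.51 (SE 0.32). Without humanized pool 3 the split of the list was 9 higher and 8 lower.

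Of the 22 hypothalamic genes, 15 were tested and 7 (Rax, Six6, Vax1, Hmx2, Hmx3, Lhx8 and Nr5a1) were below the filter, with none above 0.647 CPM in any pool. Among the tested members 9 were lower and 6 higher in humanized pools, with a median log2 fold change of -0.19. The list level was 3.40, 3.59, 2.83 and 3.10 in wild type pools 1 to 4 and 3.45, 2.88, 3.13 and 2.90 in humanized pools 1 to 4, and wild type pool 3 had the lowest level of the 8. Nkx2-1 and its paralog Nkx2-4 had a similar order across pools, with Nkx2-4 at 14.2, 15.7, 4.18 and 8.52 CPM in the wild type pools and at 14.2, 4.54, 9.101 and 4.73 CPM in the humanized pools. Otp, a homeobox factor of neuroendocrine neurons, was at -0.44 (SE 0.33), and Sim1, a factor of the same neurons, at -0.42 (SE 0.34).

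Tbx2, a T-box factor of the tuberal hypothalamus, had the lowest unadjusted p of the list (0.0517). It was at 2.32, 3.26, 2.25 and 2.98 CPM in the wild type pools and at 2.93, 4.404, 3.41 and 3.78 CPM in the humanized pools, with a log2 fold change of 0.43 (SE 0.19). Pomc, which encodes the precursor of melanocortin peptides, was at 1.08, 0.8295, 1.13 and 0.937 CPM in the wild type pools and at 1.19, 1.62, 1.17 and 1.16 CPM in the humanized pools. All humanized values were above the wild type values, at counts near the low end of those tested, and the log2 fold change was 0.38 (SE 0.23) with an unadjusted p of 0.131.

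Of the 12 ventral midline and hedgehog genes, all tested, 9 were higher in humanized pools and 3 lower, with a median log2 fold change of 0.16. None of the 12 had an unadjusted p under 0.05. The ventral midline level was 4.97, 5.19, 5.17 and 5.38 in wild type pools 1 to 4 and 5.13, 5.39, 5.51 and 5.32 in humanized pools 1 to 4, a difference of 0.963 pooled SD. Shh, the ligand, was at 73.8, 96.8, 68.9 and 98.1 CPM in the wild type pools and at 95.1, 81.96, 110 and 86.1 CPM in the humanized pools, with a log2 fold change of 0.14 (SE 0.14). Ptch1, the receptor, which is also a target of the pathway, was the most abundant member at 37.2 CPM per kilobase and stood at -0.046 (SE 0.078). Gli1, a transcriptional target, was at 32.9, 44.3, 29.5 and 37.1 CPM in the wild type pools and at 49.1, 40.1, 53.5 and 33.2 CPM in the humanized pools, with a log2 fold change of 0.29 (SE 0.17). The ligand and this target were highest in humanized pool 3.

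Among the ventral homeobox factors, Nkx6-1 was at 20.5, 28.04, 30.5 and 42.7 CPM in the wild type pools and at 25.2, 40.9, 52.7 and 41.96 CPM in the humanized pools, with a log2 fold change of 0.40 (SE 0.25). Nkx6-2 was at 5.55, 4.09, 5.95 and 5.71 CPM in the wild type pools and at 4.53, 9.27, 6.97 and 7.26 CPM in the humanized pools, with a log2 fold change of 0.40 (SE 0.22). For Nkx6-1 humanized pool 3 alone lay above every wild type pool, and for Nkx6-2 humanized pools 2 to 4 did. The floor plate genes Foxa2 and Spon1 were at 0.091 (SE 0.23) and 0.19 (SE 0.19).

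Dorsal midline genes were split evenly, with 8 of 16 tested members higher and 8 lower and a median log2 fold change of 0.0050, and Ttr, a gene of the choroid plexus, was below the filter. The dorsal midline level was 4.70, 4.76, 4.55 and 4.68 in wild type pools 1 to 4 and 4.88, 4.59, 4.74 and 4.59 in humanized pools 1 to 4. Wnt1, a ligand of the dorsal midline, was at 3.83, 5.81, 3.37 and 6.01 CPM in the wild type pools and at 5.87, 6.44, 8.41 and 5.88 CPM in the humanized pools, with a log2 fold change of 0.48 (SE 0.22) and an unadjusted p of 0.0503. Wnt3a, another such ligand, was at 4.58, 6.53, 3.91 and 5.07 CPM in the wild type pools and at 8.903, 5.05, 8.84 and 4.85 CPM in the humanized pools, with a log2 fold change of 0.46 (SE 0.25). Wnt1 was highest in humanized pool 3 and Wnt3a in humanized pool 1, and the genotypes overlapped for both. Zic1, a zinc-finger factor of dorsal progenitors and the most abundant member at 70.5 CPM per kilobase, was at -0.10 (SE 0.093).

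In the proneural and Notch list 14 of 20 tested members were higher in humanized pools and 6 lower, none with an unadjusted p under 0.05, and the median log2 fold change was 0.092. Atoh1 and Neurod6 were below the filter. The list level was 5.76, 5.85, 5.71 and 5.77 in wild type pools 1 to 4 and 5.80, 5.88, 5.61 and 5.83 in humanized pools 1 to 4, so the genotype means differed by 0.048 pooled SD. Neurog2, a proneural factor, was at 87.7 CPM per kilobase, with a log2 fold change of -0.19 (SE 0.16).

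Hes5, a Notch effector of progenitors, was at 24.7, 48.1, 31.97 and 39.1 CPM in the wild type pools and at 44.2, 44.5, 50.7 and 40.4 CPM in the humanized pools, with a log2 fold change of 0.32 (SE 0.18). Lfng, a glycosyltransferase that modifies Notch, was at 29.98, 44.7, 25.7 and 35.9 CPM in the wild type pools and at 43.5, 41.6, 49.5 and 36.6 CPM in the humanized pools, with a log2 fold change of 0.33 (SE 0.17). Nhlh2, a factor of newly born neurons, was at 253, 162, 275 and 206 CPM in the wild type pools and at 141, 162, 108 and 231 CPM in the humanized pools, with a log2 fold change of -0.48 (SE 0.23). The genotypes overlapped for each of the 3 genes. Neurod1 and Neurod4, which act late in neurogenesis, were at -0.40 (SE 0.27) and -0.40 (SE 0.33).

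DNA replication and G1/S genes had the highest main list median, 0.20, with 17 of 23 tested members higher in humanized pools and 6 lower. An unadjusted p under 0.05 was found for 3 members, all higher, beside 3.06% of all genes higher at that threshold. The list level was 6.59, 6.78, 6.68 and 6.68 in wild type pools 1 to 4 and 6.83, 6.69, 6.96 and 6.73 in humanized pools 1 to 4, and the difference was 1.21 pooled SD. Humanized pool 3 was the highest, and wild type pool 2 lay above humanized pools 2 and 4. Without humanized pool 3, 16 members were higher and 7 lower, and 0 had an unadjusted p under 0.05. In that fit 269 of all 18226 genes were higher at that threshold, against 546 of 17816 with all pools. With the Y-linked level as a covariate the median of the list was 0.068.

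Cdt1, which loads the replicative helicase at origins, was at 28.1, 43.6, 30.3 and 32.6 CPM in wild type pools 1 to 4 and at 49.99, 43.3, 60.4 and 36.04 CPM in humanized pools 1 to 4, with a log2 fold change of 0.49 (SE 0.18) and an unadjusted p of 0.0202. Mcm5, a subunit of that helicase, was at 179, 245, 163 and 186 CPM in the wild type pools and at 268, 235, 290 and 194 CPM in the humanized pools, with a log2 fold change of 0.35 (SE 0.15) and an unadjusted p of 0.04. Mcm2, another subunit, was at 242, 316, 222 and 247 CPM in the wild type pools and at 344, 303, 335 and 265 CPM in the humanized pools, with a log2 fold change of 0.28 (SE 0.12) and an unadjusted p of 0.0477. In all 3 genes wild type pool 2 was the highest wild type pool and exceeded at least 1 humanized pool. Of the other subunits, Mcm4 was at -0.11 (SE 0.10) and Mcm6 at 0.016 (SE 0.076). Pcna, the sliding clamp of DNA polymerase and the most abundant member at 203 CPM per kilobase, was at 0.062 (SE 0.074).

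G2/M genes showed a near even split, 12 of 22 higher and 10 lower, with a median log2 fold change of 0.065. The G2/M level was 6.79, 6.80, 7.03 and 6.91 in wild type pools 1 to 4 and 6.73, 6.76, 7.13 and 6.94 in humanized pools 1 to 4. Plk1, a mitotic kinase, was at 98.6, 124, 90.2 and 102 CPM in the wild type pools and at 142, 119, 152 and 113 CPM in the humanized pools, with a log2 fold change of 0.34 (SE 0.13) and an unadjusted p of 0.0235. Birc5, a subunit of the chromosomal passenger complex, was at 95.97, 113, 96.7 and 102 CPM in the wild type pools and at 127, 111, 131 and 111 CPM in the humanized pools, with a log2 fold change of 0.23 (SE 0.10) and an unadjusted p of 0.0326. Aurka, another mitotic kinase, was at 0.34 (SE 0.15). In these genes humanized pools 1 and 3 and wild type pool 2 were high and the genotypes overlapped. The most abundant member was Top2a, a topoisomerase, at 101 CPM per kilobase. It was lower in most humanized pools, with 595, 468, 856 and 593 CPM in the wild type pools, 423, 449, 509 and 631 CPM in the humanized pools and a log2 fold change of -0.32 (SE 0.18).

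In the cell cycle and proneural lists the sign of a member's difference went with its base composition. Exonic GC content had a median of 49.3% over all tested genes. In the G1/S list all 11 members above that median were higher in humanized pools, against 6 of 12 at or below it. In the G2/M list all 8 members above it were higher, against 4 of 14 at or below it. Proneural and Notch members above it were higher in 14 of 17 cases and those at or below it in 0 of 3. Over all tested genes the same division was 73.3% higher above the median and 27.6% at or below it. Thalamic, prethalamic and hypothalamic members had smaller shares above the median. There 3 of 9 (33.3%), 5 of 13 (38.5%) and 6 of 13 (46.2%) were higher, in that order. In the ventral midline list 8 of 10 members above it were higher (80%), and 1 of 2 at or below it. For the dorsal midline list these were 7 of 11 (63.6%) and 1 of 5.

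**Figure D3:**
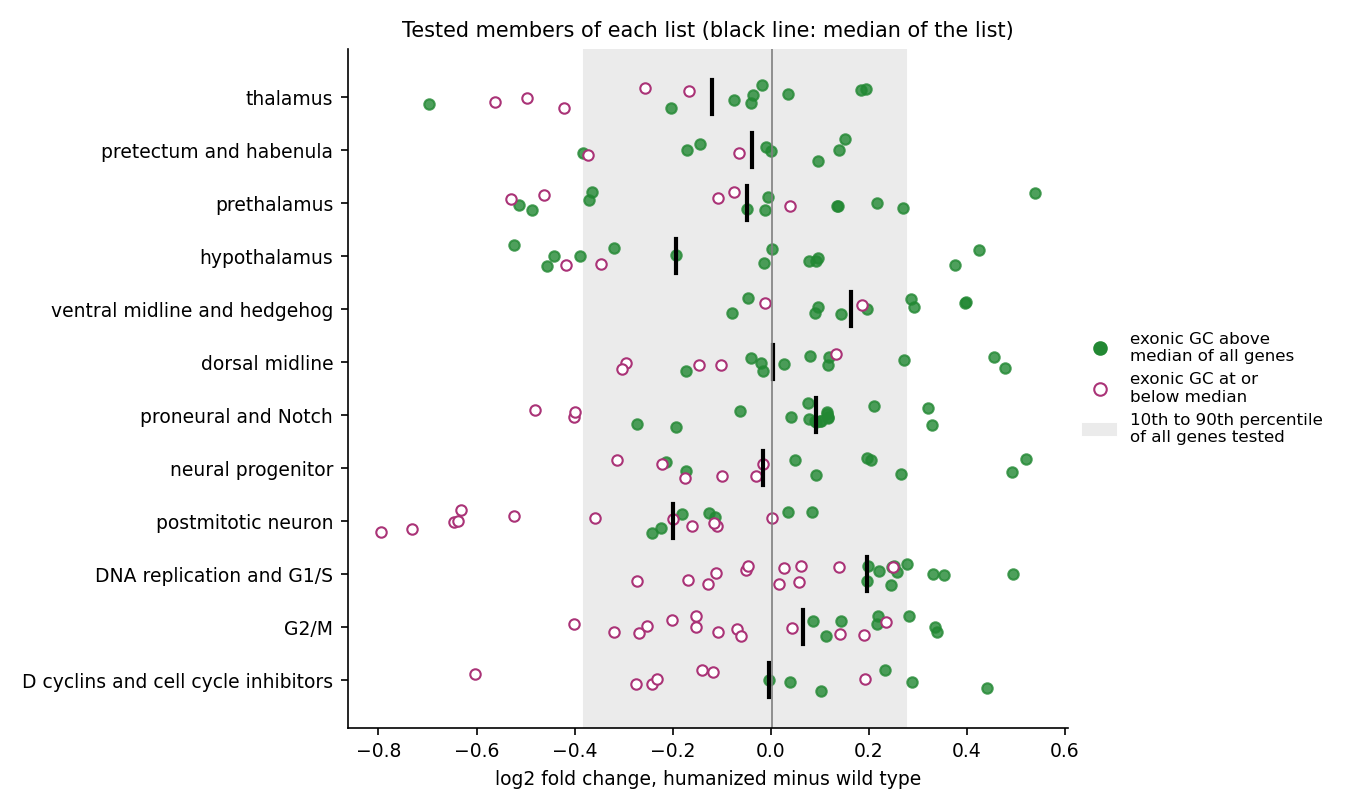
Log2 fold change of humanized over wild type (horizontal axis) for each tested member of 12 lists (rows), with filled points for genes whose exonic GC content is above the median of all tested genes and open points for the others. The black lines mark list medians, between -0.20 for postmitotic neuron and 0.20 for G1/S, the grey band holds the central 80% of all tested genes, and open points lie mostly to the left of filled points.

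The GC trend was then measured in each library as the slope of a gene's log2 CPM deviation from the mean of the 8 pools on its exonic GC content. The slopes, in log2 units per 10 percentage points of GC, were -0.121, 0.208, -0.423 and -0.140 in wild type pools 1 to 4 and 0.322, 0.244, 0.0972 and -0.187 in humanized pools 1 to 4. Wild type pool 2 had a positive slope like humanized pools 1 and 2, and humanized pool 4 a negative slope like wild type pools 1 and 4. The means were -0.119 ± 0.258 in wild type and 0.119 ± 0.224 in humanized pools (SD, n = 4 each), a difference of 0.238 with p = 0.257 by a two-sided exact permutation test, for which the smallest p of 4 against 4 is 0.0286. The trend ran through the whole range of GC content. Median log2 fold changes over 20 bins of equal gene number went from -0.275 in the lowest bin to 0.177 in the highest, and genes higher in humanized pools at an unadjusted p under 0.05 made up 0.338% of the lowest bin and 10.5% of the highest.

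**Figure D4:**
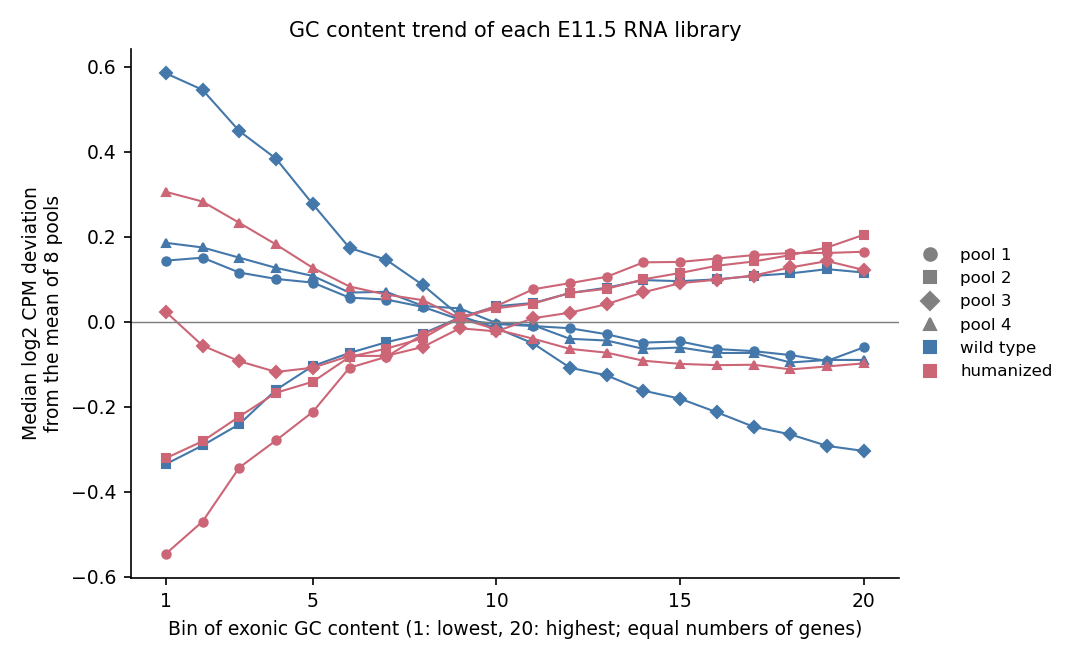
Median deviation of log2 CPM from the mean of the 8 pools (vertical axis) in 20 bins of exonic GC content (horizontal axis, lowest to highest), 1 line for each library. Wild type pool 3 falls from 0.585 to -0.304 and humanized pool 1 climbs from -0.546 to 0.165, and the lines of the genotypes are interleaved.

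With offsets that removed the GC trend within each library, the medians of the lowest and highest bins became -0.00073 and -0.0010, and 0 genes were called by edgeR with 1081 at an unadjusted p under 0.05. The direction of these genes moved, from 546 higher and 512 lower without offsets to 449 higher and 632 lower with them. The proneural and Notch median went from 0.092 to -0.069, with 5 of 20 members higher, so its sign depended on the offsets. The G1/S median was 0.196 without and 0.129 with offsets, and with offsets 22 of the 23 members were higher and 1 lower. G2/M had 16 of 22 members higher with offsets. The thalamus median was -0.193, the prethalamus median -0.149 and the hypothalamus median -0.145 with offsets, where 12 of 14, 12 of 17 and 13 of 15 members were lower. The ventral midline median was 0.164 without and 0.075 with offsets, where 8 of 12 members were higher. The dorsal midline median went from 0.0050 to -0.044, with 6 of 16 members higher. Over all tested genes 49.9% of those above the GC median and 49.1% of those at or below it were higher with offsets. The list levels of the genotypes overlapped in all 24 lists with offsets as well. The spread of a list level between pools of a genotype, as the pooled SD, went from 0.204 to 0.217 for thalamus, from 0.303 to 0.250 for hypothalamus and from 0.101 to 0.107 for G1/S.

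The lists of neighbouring and later cell states were read beside these. In the postmitotic neuron list 16 of 19 members were lower in humanized pools and 3 higher, with a median log2 fold change of -0.20. With GC offsets 18 members were lower and 1 higher, and the median was -0.283. The list level was 6.995, 6.45, 7.13 and 6.82 in wild type pools 1 to 4 and 6.25, 6.76, 6.20 and 6.92 in humanized pools 1 to 4. Syt1, the calcium sensor of synaptic vesicles, was at 70.1, 36.6, 64.6 and 51.6 CPM in the wild type pools and at 30.99, 39.1, 23.2 and 50.4 CPM in the humanized pools, with a log2 fold change of -0.63 (SE 0.25). Snap25, a SNARE protein, was at 27.9, 12.6, 33.95 and 24.4 CPM in the wild type pools and at 9.95, 13.9, 12.5 and 23.1 CPM in the humanized pools, with a log2 fold change of -0.73 (SE 0.31). These were the 2 members with an unadjusted p under 0.05, beside 2.87% of all genes lower at that threshold. Both were low in wild type pool 2 and humanized pools 1 to 3. Without humanized pool 3 there were 0 such members. In that fit 279 of all 18226 genes were lower at that threshold, against 512 of 17816 with all pools.

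Neural progenitor genes had a median of -0.016, with 7 of 15 higher and 8 lower. Sox3, a SoxB1 factor of progenitors on the X chromosome, had the lowest unadjusted p of that list (0.00275). It was at 34.1, 42.1, 33.2 and 43.6 CPM in wild type pools 1 to 4 and at 50.03, 60.2, 61.95 and 47.3 CPM in humanized pools 1 to 4, with a log2 fold change of 0.52 (SE 0.13). All 4 humanized pools were above all wild type pools for Sox3, while Sox2 and Sox1 were at 0.050 (SE 0.079) and 0.20 (SE 0.10) and overlapped. With GC offsets the log2 fold change of Sox3 was 0.34. Nes, which encodes the intermediate filament nestin, was at 1659, 1510, 1903 and 1714 CPM in the wild type pools and at 1374, 1453, 1440 and 1588 CPM in the humanized pools, with a log2 fold change of -0.21 (SE 0.087) and an overlap at humanized pool 4 and wild type pool 2. Ccnd3, a D-type cyclin, was at 0.44 (SE 0.17) and Rbl2, a pocket protein that holds cells out of the cycle, at -0.28 (SE 0.13), in a list with a median of -0.0025. In the pretectum and habenula list, with a median of -0.037, Nr4a2, an orphan nuclear receptor, was at -0.38 (SE 0.18) and Tal2, a factor of GABAergic neurons, at -0.37 (SE 0.23).

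Among the other lists, all 11 erythroid members were higher in humanized pools, and so were all 5 tested midbrain and hindbrain members. Of the erythroid members 6 had an unadjusted p under 0.05, beside 3.06% of all genes higher at that threshold. The erythroid median log2 fold change was 0.62. Hbb-bh1, an embryonic beta-like globin, was at 421, 860, 388 and 554 CPM in the wild type pools and at 757, 1071, 874 and 1152 CPM in the humanized pools, with a log2 fold change of 0.79 (SE 0.24). Hba-x, the embryonic alpha-like globin, was at 682, 987, 464 and 638 CPM in the wild type pools and at 1000, 1511, 861 and 1289 CPM in the humanized pools, with a log2 fold change of 0.75 (SE 0.23). Humanized pool 2 was highest for Hba-x, and wild type pool 2 lay above humanized pools 1 or 3 for both globins. The summed erythroid CPM ranged from 1880 to 4010 in wild type pools and from 3330 to 5850 in humanized pools, and the part of residual blood in the regional lists was not tested.

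Endothelial genes summed to 342 to 406 CPM in wild type and 374 to 409 CPM in humanized pools, with 7 of 9 members higher. Macrophage and microglia genes summed to 68.3 to 80.6 CPM and 69.8 to 79.4 CPM, with 8 of 10 higher. Mesenchyme genes summed to 1580 to 2080 CPM and 1730 to 1920 CPM, with 4 of 10 higher. The hypoxia list was higher for 8 of 9 members and the immediate early and heat shock list for 6 of 8 tested, and humanized pool 3 had the highest level of both. Genes of midbrain and hindbrain were higher for 5 of 5 tested members, from summed levels of 3.76 to 17.9 CPM in wild type and 3.83 to 23.3 CPM in humanized pools, with 7 of 12 below the filter. In the telencephalon list, of which 4 of 6 were tested, Emx2 was at -0.35 (SE 0.16) and Emx1 at 0.27 (SE 0.25), and Eomes was below the filter. Only 3 of 9 eye genes, 1 of 7 pituitary genes and 2 of 7 neural crest genes were tested.

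The pools of a genotype differed from each other as much as the genotypes did. The distance between 2 pools was taken as the root mean square log2 difference over tested genes, and its median was 0.468 within genotypes (12 pairs) and 0.456 between them (16 pairs), or 0.423 and 0.422 with GC offsets. The closest pair of all was wild type pool 4 with humanized pool 4, at 0.336, and the farthest wild type pool 3 with humanized pool 1, at 0.729. The biological coefficient of variation was 0.176 in wild type and 0.181 in humanized pools. The first principal component held 46.5% of the variance and ordered the libraries nearly as their GC slopes did, from -50.0 in wild type pool 3 to 42.9 in humanized pool 1. The second component held 15.9% and placed humanized pool 3, at 38.6, apart from wild type pool 1, at -23.8.

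Members differed in how far they varied within a genotype. The median within-genotype SD of log2 CPM was 0.236 over all tested genes, 0.535 for hypothalamic and 0.518 for prethalamic members, 0.280 for thalamic, 0.191 for G1/S and 0.204 for G2/M members. With GC offsets the hypothalamic value was 0.333 and the prethalamic value 0.479. The difference between genotype means exceeded the within-genotype SD for 12 of 23 G1/S members (52.2%) and 10 of 22 G2/M members (45.5%), against 3 of 17 prethalamic (17.6%), 3 of 15 hypothalamic (20%) and 3 of 14 thalamic members (21.4%). Over all tested genes the share was 32.2%.

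Promoter marks of the same genes came from 2 ChIP-seq replicates of each genotype at E11.5, also 6 pooled embryos each. H3K4me3 is found at promoters that are active or poised, and H3K27ac at active ones. H3K27me3, the product of Polycomb repressive complex 2, is found at promoters of developmental genes that are off in part or all of the cells. The paper reports that its H3K27ac antibody lot also bound H2BK5ac, an acetylation of histone H2B, so H3K27ac peaks may include that mark. A promoter was 1 kb on either side of the start of the canonical transcript, and chromosome 13, with Irx1 and Irx2, was left out because the positions of the humanized genome are shifted there. Of 127 promoters of tested main list members, 125 had an H3K4me3 peak in both wild type replicates and 125 in both humanized replicates, beside 78.2% and 78.5% of all 17069 promoters. Bsx and Pomc of the hypothalamus list were the exceptions. H3K27me3 covered 78 promoters in wild type and 77 in humanized tissue, beside 20.3% and 22.6% of all promoters, and H3K27ac covered 104 and 106, beside 61.9% and 63.3%.

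Regional and cell cycle lists differed in promoter state. All 16 prethalamic, 13 hypothalamic, 11 ventral midline and 14 dorsal midline promoters had an H3K27me3 peak in each of the 4 replicates. In the thalamus list 11 of 12 had one in wild type and 10 in humanized tissue, where Tcf7l2 had none and Foxp2 had one in 3 of the 4 replicates. None of the 22 G1/S and 21 G2/M promoters had one in both replicates of either genotype, and all of them had H3K27ac in every replicate. In the proneural and Notch list 13 of 18 had H3K27me3 in both genotypes, and Hes6, Btg2, Mfng and Neurod4 had it in no replicate and Nhlh1 in 1 humanized replicate. Among the markers, Pax6, Olig3 and Nkx2-1 had peaks of all 3 marks in each of the 4 replicates, and Dlx2 lacked H3K27ac in wild type replicate 2 alone.

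Between genotypes, 0 of the 127 promoters had a peak in both humanized replicates and no wild type replicate for any mark, beside 0.082% of all promoters for H3K4me3, 0.58% for H3K27ac and 0.826% for H3K27me3. A single promoter, that of Rspo1, had H3K27ac in both wild type and in no humanized replicate, beside 0.234% of all promoters for that mark. For H3K4me3 and H3K27me3 the count in that direction was 0, beside 0.0176% and 0.0234%. Rspo1, an R-spondin that potentiates Wnt signalling, had a log2 fold change of 0.12 (SE 0.17) in RNA. With 2 replicates of each genotype, no test of a single promoter was made.

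**Figure D5:**
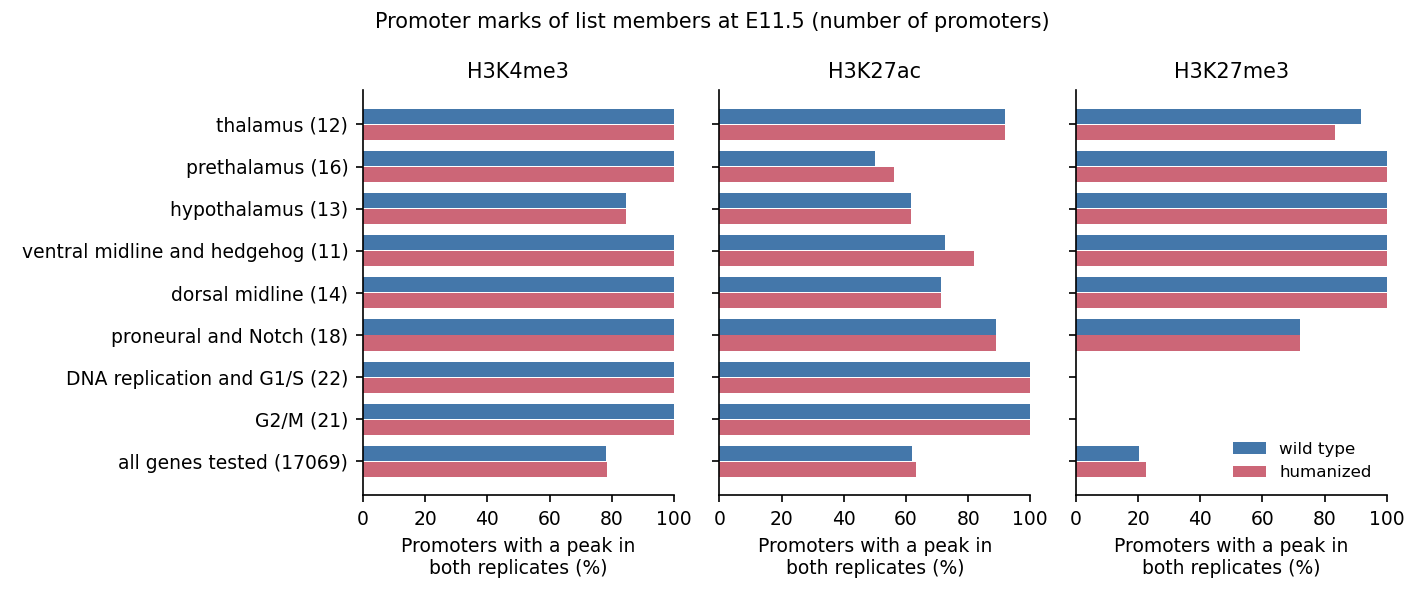
Percent of promoters with a peak in both replicates (horizontal axis, 0 to 100) of H3K4me3, H3K27ac and H3K27me3 for the 8 main lists and all tested genes (rows, number of promoters in parentheses), with a bar for wild type and a bar for humanized tissue. The bars of the genotypes have similar lengths in each row, and H3K27me3 is at 72.2% or more in the regional and proneural lists and at 0 in both cell cycle lists.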

How the data were processed

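RNA was measured in 4 wild type and 4 humanized pools of E11.5 diencephalon. The authors mapped reads with STAR 2.7.9a to mm39 and the GENCODE M31 basic annotation, and deposited raw counts per gene for each library, of which the unstranded column was used. For ChIP-seq the authors aligned reads with Bowtie2 2.4.2 and ran the peak caller MACS2 2.2.7.1 on single replicates, and the deposited peak lists give a fold enrichment ratio and a -log10 q-value for each peak. Read pairs assigned to no gene (49.9% to 55.8%) were left out. Genes were filtered with filterByExpr, scaled by TMM and tested with edgeR 4.0.16 (quasi-likelihood, Benjamini-Hochberg adjustment, R 4.3.3). Tests were fitted over all genes. The lists and their members were chosen with earlier results of these data known. Each pool was 1 litter, and the edgeR p-values weigh the genotype difference against the spread between these pools. Named members were the 4 markers, the 3 members of each main list with the lowest unadjusted p, the most abundant member per kilobase, and up to 2 members of other lists. Other members, Irx2, Gbx2, Shh and Rspo1 among them, were named after their values were seen, and some members that the rule names are not reported here. Names, exon lengths and GC content came from GENCODE M39, which matched 56236 of 56923 identifiers (98.8%), and sequences from GRCm39. The alternatives were DESeq2 1.42.0, other size factors, no filter, the stranded column, all 16 RNA samples, a replicate block, GC offsets in 20 bins, a Y-linked covariate and leaving out pools. Scripts were tested on simulated data.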

Additional observations from a re-analysis of the deposited data

Results flagged for a closer look

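The Pomc level of humanized pool 2, 1.622 CPM, lay far from those of the other 3 humanized pools (1.16, 1.171 and 1.194 CPM). Its gap to the nearest pool was 0.926 of the range of the 4 pools, above Dixon's 95% critical value. It was the only value past that limit among 120 groups of 4 pools checked, and chance alone flags about 1 in 20 groups.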

How the results depend on the processing

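The number of genes called was 0 in edgeR when any 1 pool was left out (0 to 0), 2 with DESeq2 (Ppp3cc, log2 fold change 1.04, adjusted p = 1.42e-05, and Serinc5, -1.5, adjusted p = 0.0317) and 1 with all 16 RNA samples in the edgeR fit (Ppp3cc, 1.07, adjusted p = 0.0459). At an unadjusted p under 0.05 there were 1058 genes in the fit as reported, 51.6% of them higher. There were 2123 (43.3% higher) with no filter, 450 (39.6% higher) with all 16 samples, 1081 (41.5% higher) with GC offsets, 346 (58.1% higher) with the Y-linked covariate, and 334 (51.5% higher) without wild type pool 3 and humanized pool 1, the libraries of lowest and highest GC slope, an alternative chosen after seeing the data. Without wild type pool 2 there were 3937 and without humanized pool 4 there were 3963, of which 40.2% were higher. The cause was not tested.

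The proneural and Notch median was -0.069 with GC offsets, -0.070 with the replicate block and GC offsets, and -0.00361 without the libraries of lowest and highest GC slope. The G1/S median was 0.068 with the Y-linked covariate. Leaving out 1 pool at a time gave medians from -0.175 to -0.0115 for thalamus, -0.264 to 0.0893 for prethalamus, -0.353 to -0.0373 for hypothalamus, 0.0808 to 0.25 for ventral midline, -0.0409 to 0.0412 for dorsal midline, 0.0278 to 0.147 for proneural and Notch, 0.117 to 0.257 for G1/S, 0.03 to 0.103 for G2/M and, beside these, -0.363 (without humanized pool 4) to -0.111 (without humanized pool 1) for postmitotic neuron, whose median was -0.0475 with the Y-linked covariate. Of 42 named genes, 2 changed sign. Dlx2 was at -0.0302 with GC offsets, -0.0792 with the replicate block and GC offsets, -0.115 with the Y-linked covariate and -0.416 without the libraries of lowest and highest GC slope, and Olig3 was at 0.00872 with all 16 samples and 0.00642 with the Y-linked covariate. Leaving out single pools gave -0.24 to 0.444 for Dlx2, -0.193 to 0.111 for Olig3 and -0.902 (without humanized pool 1) to -0.166 (without wild type pool 2) for Nkx2-1, which was at -1.15 without the libraries of lowest and highest GC slope. Dlx2 was below 0 without wild type pool 3 (-0.0362) or humanized pool 1 (-0.24), and Olig3 above 0 without wild type pool 1 (0.111), wild type pool 2 (0.0745), humanized pool 3 (0.0515) or humanized pool 4 (0.0712).

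The GC slope difference was 0.136 to 0.347 and the ratio of between- to within-genotype distance 0.968 to 1.09 when pools were left out. Main list promoters with H3K27ac in both replicates numbered 97 in wild type and 95 in humanized tissue at the strictest alternative, against 104 and 106. Replicate numbers were shared between genotypes, and the labels do not say whether same-numbered pools were processed together. Deviations of same-numbered pools correlated at 0.0408, 0.145, 0.043 and 0.0634. Such correlations cannot show how the pools were processed. With a replicate block edgeR called 0 genes, and 998 (47.3% higher) were under 0.05 before adjustment.

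Each group had 4 pools of 6 embryos, and hypothalamic and prethalamic members had the widest spread of the main lists. The sex of the embryos in each pool is not given by the labels. The Y-linked covariate was fitted as an alternative only. Summed Y-linked CPM was 0.319 in humanized pool 3 and 19.2 to 137 in the other pools. Beyond that fit the part of sex was not tested.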
